A study of Mus musculus with 7 samples.

Results

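The immunity-related GTPases, also called p47 GTPases, were followed in CD8 T cells sorted from MCA205 tumours of ENT1KO and WT mice. They were taken as the rows of the deposited TPM table named Irgm1, Irgm2, Igtp, Iigp1, Ifi47, Tgtp1 and Tgtp2, and all 7 were found among the table's 55357 genes. The ENT1KO group held 4 libraries (replicates 11, 12, 14 and 15) from Slc29a1-/- mice, which lack the equilibrative nucleoside transporter ENT1, and the WT group held 3 libraries (replicates 1, 2 and 3) from C57Bl/6 mice. Mice of both genotypes carried subcutaneous tumours of MCA205, a transplanted mouse fibrosarcoma line, and live CD45+ CD8+ cells were sorted on day 14. The labels give no age or sex, no statement that each library is a separate animal, and no cell type restriction of the Slc29a1 loss, so p-values measure the spread between these libraries.

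Immunity-related GTPases are among the most strongly induced products of interferon gamma signalling in mouse cells. Their best known task is defence against microbes that live in vacuoles. Ifi47 (Irgd), Iigp1 (Irga6) and the Tgtp proteins (Irgb6) carry the usual lysine in the nucleotide-binding loop and can load onto the vacuole membrane. Irgm1, Irgm2 and Igtp (Irgm3) carry a methionine there, sit on the cell's own membranes, and hold the first set inactive. In mice, Irgm1 is also needed for lymphocytes to survive exposure to interferon gamma. Interferon gamma acts through its receptor and the JAK kinases on gene promoters. Sites of the form TTCNNNGAA are known to take part in the response to interferon gamma, and interferon regulatory factors bind sites with the letters GAAA, any 2 bases and GAAA again.

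Letters matching both kinds of site stood side by side upstream of Igtp, Irgm2, Tgtp1 and Tgtp2, and the stretches that hold them are shown here, with that of Irgm1, to let the members be compared. RefSeq promoter entries (GRCm38.p6, 250 bases before to 50 after the annotated start) were matched for 6 of the 7 genes, Iigp1 being the exception. Each line gives 60 bases upstream of the start, 5′ to 3′ on the gene's own strand, with matches to TTCNNNGAA and to the paired GAAA motif in capitals.
Igtp: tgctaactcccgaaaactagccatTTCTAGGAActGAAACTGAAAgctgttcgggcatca
Irgm2: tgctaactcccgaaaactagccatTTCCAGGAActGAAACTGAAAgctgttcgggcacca
Tgtp1: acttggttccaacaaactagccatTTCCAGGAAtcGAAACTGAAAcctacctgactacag
Tgtp2: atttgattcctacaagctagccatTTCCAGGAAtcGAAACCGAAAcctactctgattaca
Irgm1: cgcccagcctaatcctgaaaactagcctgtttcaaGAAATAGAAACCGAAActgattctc

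In GRCm38.p6 these windows lie at chr11:58199487-58199546 on the plus strand for Igtp, chr11:58214878-58214937 on the plus strand for Irgm2, chr11:48992299-48992358 on the minus strand for Tgtp1, chr11:49064258-49064317 on the minus strand for Tgtp2 and chr11:48871426-48871485 on the minus strand for Irgm1. In Igtp, Irgm2, Tgtp1 and Tgtp2, 2 bases separated the TTCNNNGAA match from the paired GAAA match, which began 34, 64, 77 and 70 bases before the start. The Igtp and Irgm2 windows shared 58 of 60 bases, and the Tgtp1 and Tgtp2 windows shared 46 of 60. In Irgm1 the capitals cover 2 overlapping paired GAAA matches and no TTCNNNGAA match. Ifi47 had neither match in its window. Searched on both strands, the paired GAAA motif occurred in 3.44% of all 32851 promoter windows, TTCNNNGAA in 8.3%, and both within 20 bases of each other in 0.0974%. Counted by gene, as the lists that follow are, the shares over 27025 genes were 3.99%, 9.55% and 0.115%. Of 5 guanylate-binding protein genes with an entry, 5 held the paired GAAA motif, 2 held TTCNNNGAA and none held both within 20 bases. Of 5 other immunity-related GTPase genes 1 held both within 20 bases, as did 1 of 14 genes of the interferon gamma ligand, receptor and signalling list and none of 9 CD8 T cell identity genes. These matches describe letters in the windows and do not show that a factor bound there.

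Slc29a1 stood at 13.2 to 17.6 TPM in ENT1KO libraries, against 49.7 to 58.9 TPM in WT libraries. Depth was estimated at 18624318 to 19660792 gene-assigned reads per library from the steps of the deposited normalized counts, although steps close to 1 do not prove whole reads in every column. The libraries differed in other ways that move with genotype. Of 14 genes that mark CD8 T cells, all rose, and their summed level was 9105 to 11210 TPM in ENT1KO and 2857 to 6871 TPM in WT, so the labelled cell type was present in both groups. Of 19 tested macrophage and monocyte markers, 18 fell, and the list of 20 summed to 323 to 1492 TPM in ENT1KO and 3771 to 5642 TPM in WT. Of 18 tested fibroblast and tumour cell markers, 17 fell, and Thy1, which T cells also make, rose; that list of 19 summed to 1201 to 2251 TPM in ENT1KO and 5190 to 8240 TPM in WT. No marker of either list was at 0 in all ENT1KO libraries. In bulk samples, fewer cells of a type and less RNA per cell cannot be told apart.

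Transcripts of 6 of the 7 GTPases rose in ENT1KO libraries, and for each of the 6 every ENT1KO library stood above every WT library in TPM. The rises ran from 1.31-fold for Irgm1 to 2.301-fold for Tgtp1. Iigp1 did not pass the test, with a lower mean in ENT1KO and overlapping groups. The test was limma-trend on log2(TPM + 1) over 13798 genes, a scale that understates changes of low genes, and 50.6% of all genes passed an adjusted p of 0.05 in it, with 27.5% higher in ENT1KO and 23.1% lower. That split moved with scaling: 3800 genes were called higher and 3182 lower on TPM, against 2894 and 3859 on the deposited normalized counts, and 22 and 9129 relative to the CD8 T cell markers, where the median of all genes was -1.03. Over all tested genes 30.3% had each ENT1KO library above each WT library. The median log2 difference was 0.79 over the 7 GTPases and 0.15 over all tested genes. The TPM of all 7 added up to 991 ± 84.4 in ENT1KO and 579 ± 62.8 in WT (SD, n = 4 and 3).

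**Figure D1:**
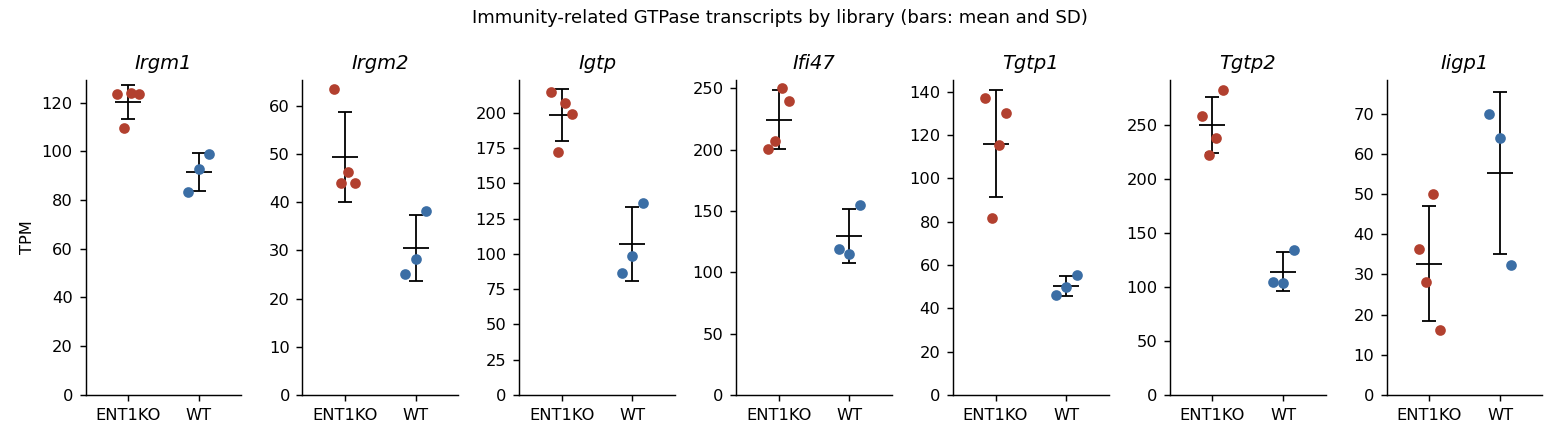
TPM of each GTPase in each library (points), with the mean and SD as bars, ENT1KO (4 libraries) left of WT (3 libraries); each vertical axis starts at 0 and has its own range. In the first 6 panels all ENT1KO points lie above all WT points, and in the Iigp1 panel the groups overlap.

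Among the membrane-resident regulators, Igtp, which in mice guards endoplasmic reticulum and lipid droplet membranes, changed the most. Igtp (ENSMUSG00000078853.9, chromosome 11, 58090382 to 58098417, GRCm39) was at 215, 172, 207 and 199 TPM in ENT1KO replicates 11, 12, 14 and 15, against 86.1, 98.5 and 136 TPM in WT replicates 1, 2 and 3. The lowest ENT1KO library was replicate 12 and the highest WT library replicate 3, and the groups did not overlap. Means were 198 ± 18.4 and 107 ± 26.2 TPM (SD, n = 4 and 3), a log2 difference of 0.91 (SE 0.16; limma-trend adjusted p = 0.00364). By exact permutation (two-sided, 35 arrangements) p was 0.0286, the smallest these group sizes allow, for Igtp and for each of the other 5 that rose.

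Irgm2, a Golgi-associated regulator, was the least abundant of the 6. Irgm2 (ENSMUSG00000069874.8, chromosome 11, 58090444 to 58113608) was at 63.4, 44.0, 46.2 and 44.0 TPM in ENT1KO replicates 11, 12, 14 and 15, against 25.1, 28.1 and 38.2 TPM in WT replicates 1, 2 and 3. ENT1KO replicate 11 stood apart above the other ENT1KO libraries, and the groups did not overlap. The log2 difference was 0.69 (SE 0.18; limma-trend adjusted p = 0.0151). The call was lost without WT replicate 1 (0.56, limma adjusted p = 0.0549) and without WT replicate 2 (0.64, limma adjusted p = 0.0511). Its annotated span shares 7974 bases with that of Igtp on the same strand, so some reads could belong to either gene. In GENCODE M21 transcripts, 6.79% of the 50-base windows of Irgm2 also occurred in Igtp.

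Irgm1, found on Golgi, lysosomal and mitochondrial membranes, had the smallest rise. Irgm1 (ENSMUSG00000046879.8, chromosome 11, 48752795 to 48762510) was at 123, 109.8, 124 and 124 TPM in ENT1KO replicates 11, 12, 14 and 15, against 83.3, 92.5 and 98.9 TPM in WT replicates 1, 2 and 3. ENT1KO replicate 12 stood below the other 3 ENT1KO libraries and above all WT libraries. The log2 difference was 0.39 (SE 0.10; limma-trend adjusted p = 0.0138). This call did not hold on the normalized counts (0.26, limma adjusted p = 0.084), after quantile normalization (0.24, limma adjusted p = 0.0702) or in the authors' deposited table (0.25, adjusted p = 0.106).

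Of the effector GTPases that can load onto vacuoles, the Tgtp genes showed the largest rises. Tgtp2 (ENSMUSG00000078921.4, chromosome 11, 48948021 to 48955033) was at 258, 222, 238 and 282 TPM in ENT1KO replicates 11, 12, 14 and 15, against 105, 103 and 134 TPM in WT replicates 1, 2 and 3. Tgtp1 (ENSMUSG00000078922.10, chromosome 11, 48876154 to 48884999) was at 137, 81.6, 116 and 130.3 TPM in the same ENT1KO libraries, against 46.1, 49.9 and 55.3 TPM in the WT libraries. For both genes the lowest ENT1KO library was replicate 12, and it stood above all WT libraries. The log2 differences were 1.13 for Tgtp2 (SE 0.13; limma-trend adjusted p = 0.00127) and 1.16 for Tgtp1 (SE 0.18; limma-trend adjusted p = 0.00217).

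How the reads were divided between these near copies is uncertain. Of the 50-base windows of Tgtp1 transcripts, 79.4% also occurred in Tgtp2, and 85.8% of those of Tgtp2 also occurred in Tgtp1. The sum of both genes, which depends less on that division, was 395, 303, 353 and 412 TPM in ENT1KO replicates 11, 12, 14 and 15, against 151, 153 and 189.8 TPM in WT replicates 1, 2 and 3. No WT library reached the lowest ENT1KO sum, and the mean was 2.22-fold higher. The sum is not free of the division, since TPM weights reads by each gene's length and both genes share windows with Gm12185 (5.64% of those of Tgtp1 and 4.88% of those of Tgtp2). Tgtp1 made up 31.5 ± 3.32% of the sum in ENT1KO and 30.8 ± 1.72% in WT (SD, n = 4 and 3). The shares overlapped between groups, at 26.9 to 34.7% in ENT1KO and 29.2 to 32.6% in WT.

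Ifi47, an effector of the same class, was the most abundant member in WT libraries. Ifi47 (ENSMUSG00000078920.4, chromosome 11, 48967414 to 48987801) was at 201, 207, 249.99 and 240.0 TPM in ENT1KO replicates 11, 12, 14 and 15, against 119, 115 and 155 TPM in WT replicates 1, 2 and 3. All ENT1KO libraries were above the highest WT library, replicate 3. The log2 difference was 0.79 (SE 0.14; limma-trend adjusted p = 0.00329).

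Iigp1, the effector whose loading onto vacuoles is the best studied, differed from the other 6 in direction and in spread. Iigp1 (ENSMUSG00000054072.13, chromosome 18, 60509099 to 60525706) was at 36.4, 28.0, 50.1 and 16.2 TPM in ENT1KO replicates 11, 12, 14 and 15, against 69.8, 63.9 and 32.3 TPM in WT replicates 1, 2 and 3. WT replicate 3 lay inside the ENT1KO range, and the spread was the widest of the family, with a coefficient of variation of 43.7% in ENT1KO and 36.4% in WT. The log2 difference was -0.78 (SE 0.40; limma-trend adjusted p = 0.135; exact two-sided permutation p = 0.171). In the authors' deposited table its log2 fold change was -0.97 (SE 0.39, adjusted p = 0.0327). That table called 5 of the 7 GTPases higher, among 16.5% of all genes with an adjusted p there, and Iigp1 lower, among 25.8%.

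The order of levels differed a little between genotypes. In ENT1KO the means ran from Tgtp2 (249.9 TPM) through Ifi47 (224), Igtp (198), Irgm1 (120.2), Tgtp1 (116) and Irgm2 (49.4) to Iigp1 (32.7 TPM). The ranges of neighbours in that order overlapped except between Igtp and Irgm1 and between Tgtp1 and Irgm2. In WT the means ran from Ifi47 (129.6 TPM) through Tgtp2 (114), Igtp (107), Irgm1 (91.6), Iigp1 (55.3) and Tgtp1 (50.5) to Irgm2 (30.45 TPM). There the ranges were apart between Irgm1 and Iigp1 and between Tgtp1 and Irgm2, and overlapped between all other neighbours.

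Whether the members moved by unequal amounts was asked by a comparison within each library, which depends little on how libraries were scaled. Each gene's log2(TPM + 1) was set against the mean of the other 6 in the same library. The 7 comparisons share members and libraries, and their p-values were not adjusted. The smallest exact permutation p that these group sizes allow is 0.0286. Iigp1 stood 2.17 ± 0.67 below the others in ENT1KO and 0.55 ± 0.81 below them in WT, a difference of -1.62 (SD, n = 4 and 3; exact two-sided permutation p = 0.0286). The separation was narrow, since ENT1KO replicate 14 was at -1.486 and WT replicate 3 at -1.479, and with a pseudocount of 0.1 the exact permutation p was 0.0571. Tgtp2 was at 1.33 ± 0.22 in ENT1KO and 0.73 ± 0.14 in WT, a difference of 0.60 (SD, n = 4 and 3; exact permutation p = 0.0286), and on normalized counts the difference was 0.46 (exact permutation p = 0.0571).

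Irgm1 was lower and Tgtp1 higher relative to the other members in every ENT1KO library than in any WT library, by -0.26 and 0.64 (exact permutation p = 0.0571 for each). Irgm2, Igtp and Ifi47 overlapped between genotypes on this scale, with differences of 0.08, 0.34 and 0.21. Against the mean of the 7, 51.2% of all tested genes were lower and 1.86% higher in every ENT1KO library. Iigp1 is in the base of every other member, where its lower mean in ENT1KO adds to their relative rises. Each comparison also has Tgtp genes in its base. Without the Tgtp genes, and with Iigp1 still in the base, Igtp was 0.63 higher relative to the rest (exact permutation p = 0.0286). Iigp1 was then 1.47 lower (-1.47, exact permutation p = 0.0857). The Irgm1 difference was then -0.01 with overlapping groups (exact permutation p = 0.943). The separation of Irgm1 thus depended on which members were in the base, and a base without Iigp1 was not examined.

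In shares of the summed TPM, Iigp1 held 3.52, 3.24, 4.86 and 1.56% in ENT1KO replicates 11, 12, 14 and 15, against 13.1, 11.6 and 4.96% in WT replicates 1, 2 and 3. Irgm1 held 12.2 ± 0.36% in ENT1KO and 15.9 ± 0.82% in WT, and Tgtp2 held 25.2 ± 1.74% in ENT1KO and 19.7 ± 0.97% in WT (SD, n = 4 and 3). For both genes the shares did not overlap between genotypes.

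**Figure D2:**
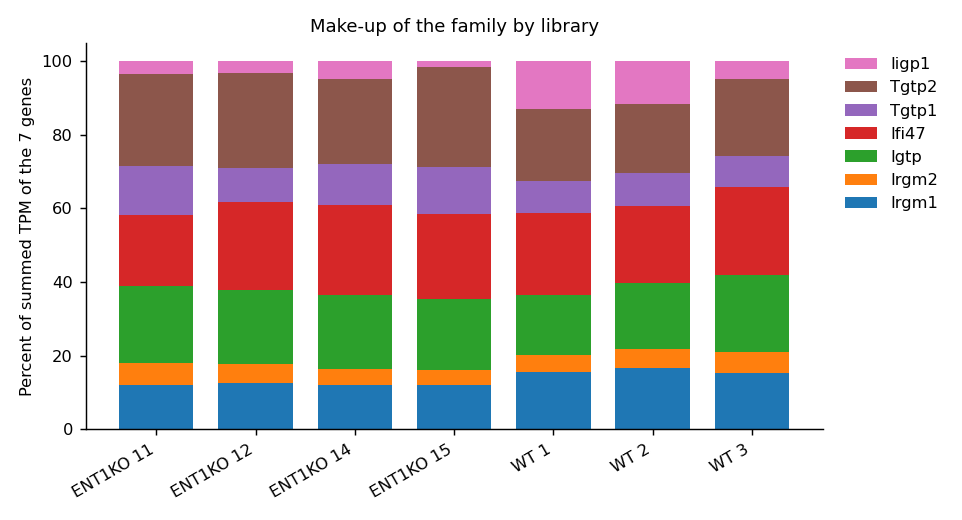
Share of each GTPase in the summed TPM of the 7 genes (vertical axis, percent) in each ENT1KO library and then each WT library. The Iigp1 share is 1.56 to 4.86% in ENT1KO and 4.96 to 13.1% in WT, and the Tgtp1 and Tgtp2 shares are larger in all ENT1KO libraries than in any WT library.

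Relative to T cell transcripts, no GTPase was higher in every ENT1KO library than in all WT libraries. Each gene's log2(TPM + 1) was set against the mean of the 14 CD8 T cell identity genes in the same library, again as 7 comparisons with unadjusted p-values. Tgtp1 differed by -0.01 and Tgtp2 by -0.05 between genotypes, with a pooled SD between libraries of 0.48 and 0.33 (exact two-sided permutation p = 1.0 and 0.971). Igtp differed by -0.27, Ifi47 by -0.38 and Irgm2 by -0.49 (exact permutation p = 0.486, 0.2 and 0.171). Irgm1 differed by -0.78, with all ENT1KO libraries below all WT libraries (exact permutation p = 0.0286), as 67.0% of all tested genes were on this scale; 0.29% were above. Iigp1 differed by -1.95 with overlap (exact permutation p = 0.0857). Macrophages and other cells also make these transcripts, so this ratio does not isolate the T cell part.

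**Figure D3:**
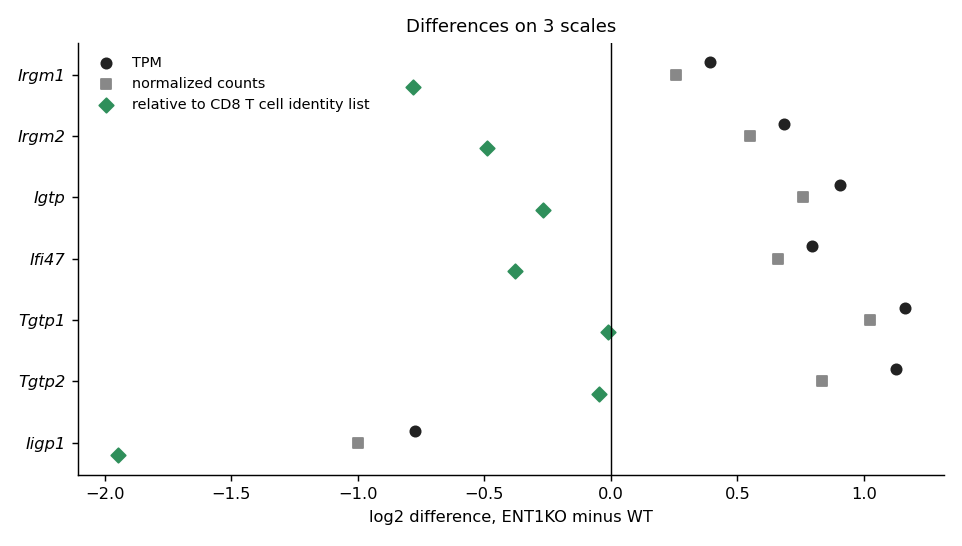
The log2 difference between ENT1KO and WT (horizontal axis) of each GTPase on TPM, on the deposited normalized counts and relative to the CD8 T cell identity list. The 6 raised genes are at 0.39 to 1.16 on TPM and at -0.78 to -0.01 relative to the identity list, and Iigp1 is below 0 on all 3 scales.

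The levels of macrophage markers were set beside these values. The macrophage and monocyte list summed to 592, 715, 1492 and 323 TPM in ENT1KO replicates 11, 12, 14 and 15, against 3890, 5642 and 3771 TPM in WT replicates 1, 2 and 3. Within ENT1KO, replicate 14 had both the highest macrophage sum and the highest Iigp1, and replicate 15 the lowest of both. Within WT, replicate 3 had the lowest macrophage sum and the lowest Iigp1, and it also had the highest level of T cell identity genes (6871 TPM). The order did not hold throughout. WT replicates 1 and 3 had similar macrophage sums but 69.8 and 32.3 TPM of Iigp1. WT replicate 2, with the highest sum, had less Iigp1 than WT replicate 1. ENT1KO replicate 12 had a higher sum than ENT1KO replicate 11 (715 and 592 TPM) but less Iigp1 (28.0 and 36.4 TPM). Because these sums do not overlap between genotypes, a fit that also held the macrophage level as a term cannot tell it apart from genotype. In that fit the Iigp1 difference was 1.08 (limma adjusted p = 0.746), those of the other 6 were 0.38 to 0.88 (limma adjusted p = 0.734 to 0.757), and nothing is read from their signs. No gene of all 13798 passed in that fit in limma, where 935 had an unadjusted p under 0.05, Tgtp2 among them.

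**Figure D4:**
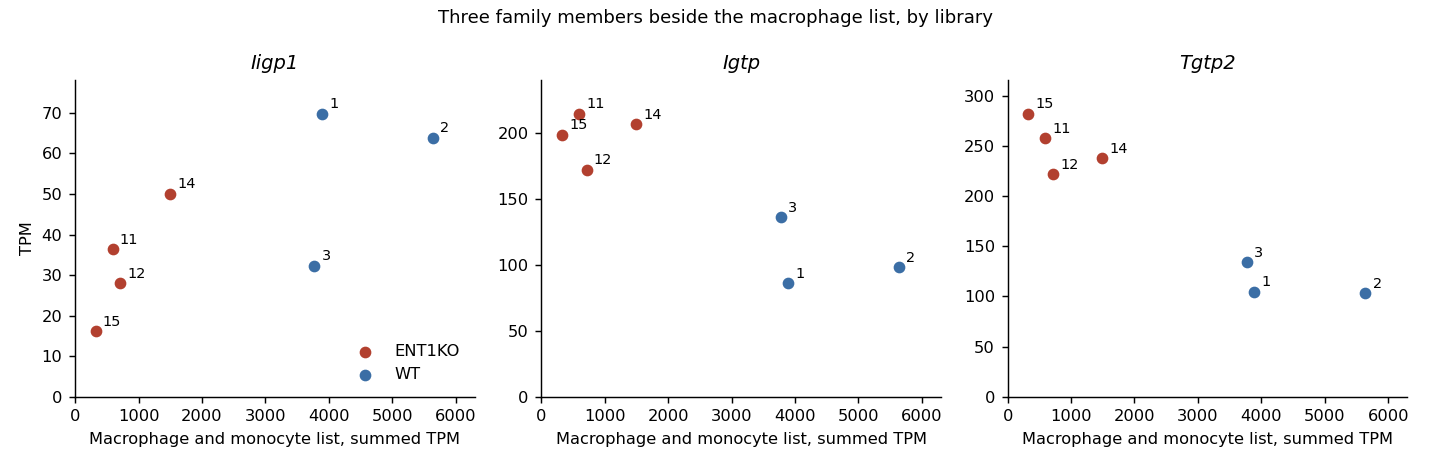
TPM of Iigp1, Igtp and Tgtp2 (vertical axes, from 0) against the summed TPM of the macrophage and monocyte list (horizontal axis) in each library, numbered by replicate. Iigp1 is highest in the libraries with sums of 3890 and 5642 TPM, while Igtp and Tgtp2 are highest in the 4 ENT1KO libraries, whose sums are 323 to 1492 TPM.

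Of 25 listed symbols of other immunity-related GTPase genes, alternative names included, 10 were in the table and 8 were tested. Of these 3 rose and 2 fell, near the shares of all tested genes (27.5% and 23.1%), and their median log2 difference was -0.33. On chromosome 11, 9930111J21Rik1 (62.8 ± 7.29 TPM in ENT1KO and 17.0 ± 6.81 TPM in WT) and 9930111J21Rik2 (93.3 ± 15.6 and 34.2 ± 8.86 TPM) rose by 1.90 and 1.44 (SD, n = 4 and 3; limma-trend adjusted p = 0.00164 and 0.00163). Gm12185, also on chromosome 11, rose by 1.25 (limma-trend adjusted p = 0.0162), and it shares sequence with the Tgtp genes. Gm4951, on chromosome 18 like Iigp1, fell (1.22 ± 1.04 TPM in ENT1KO and 5.38 ± 2.28 TPM in WT; limma-trend adjusted p = 0.0155). Gm4841 and F830016B08Rik, also on chromosome 18, had differences of -0.54 and -1.01 and did not pass. Gm5431, on chromosome 11, fell by 0.58 on the log2 scale (limma-trend adjusted p = 0.0342) at levels under 2.2 TPM in each library. Gm12185, Gm4841, F830016B08Rik and Gm5431 were picked with their values known.

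The list of interferon gamma ligand, receptor and signalling genes held 16 tested genes, of which 12 rose and 1 fell. Their median log2 difference was 0.64, beside a median of 1.14 for the T cell identity genes between the same libraries. Among all tested genes 27.5% rose and 23.1% fell. The risers include the gene of a feedback inhibitor, Socs1, so the count is one of transcripts, and activity of the pathway was not tested. Ifng, the ligand made by activated T cells, was at 212 ± 51.4 TPM in ENT1KO and 106 ± 36.1 TPM in WT (SD, n = 4 and 3; limma-trend adjusted p = 0.0176). Ifngr1, the ligand-binding receptor chain, was at 1025 ± 84.5 and 480.4 ± 188 TPM, while Ifngr2, the signalling chain, fell (17.9 ± 11.2 TPM in ENT1KO and 43.9 ± 9.76 TPM in WT; limma-trend adjusted p = 0.0281).

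Downstream of the receptor, the kinase gene Jak2 rose by 0.76, and Irf9, an interferon regulatory factor, rose by 0.90 (limma-trend adjusted p = 0.00304 and 0.00358). Irf1, a regulatory factor that drives GTPase genes, rose by 0.60 (limma-trend adjusted p = 0.0102), and Socs1, the feedback inhibitor, by 0.71 (limma-trend adjusted p = 0.00983). Relative to the CD8 T cell identity list, Ifng differed by -0.14, Jak2 by -0.42 and Irf1 by -0.57. On that scale 5 of the 16 were lower and none higher in every ENT1KO library, where 67.0% of all tested genes were lower and 0.29% higher. Ifng, Ifngr2, Irf1 and Socs1 were picked with their values known.

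Of 14 tested genes of interferon alpha and beta signalling and its sensors 6 rose and 2 fell, with a median of 0.31. The shares of all tested genes were 27.5% and 23.1%. Ddx58, the RNA sensor RIG-I, rose by 0.94, Irf7 by 0.97 and Irf3 by 0.76 (limma-trend adjusted p = 0.00133, 0.00169 and 0.00234). Tlr3 and Tlr9, endosomal sensors chosen as examples after their values were seen, fell by 1.57 and 1.25 on the log2 scale (limma-trend adjusted p = 0.0056 and 0.00652).

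Larger interferon-inducible GTPases rose too, where 27.5% of all tested genes rose and 23.1% fell. Of 11 guanylate-binding proteins, which act beside the p47 GTPases on vacuoles, 8 rose and none fell in limma-trend, with a median of 1.25; no unadjusted p of the falling members was under 0.05. Gbp10 and Gbp4 rose by 2.11 and 1.31, while Gbp2 was at 130.1 ± 22.2 TPM in ENT1KO and 157 ± 34.6 TPM in WT and did not pass. All 5 genes of the Mx and very large inducible GTPase list rose, with a median of 1.68. Gvin2 was at 295 ± 6.41 TPM in ENT1KO and 97.5 ± 41.8 TPM in WT, and Mx1, an antiviral GTPase, at 83.1 ± 17.9 and 29.7 ± 3.24 TPM (SD, n = 4 and 3). Relative to the identity list 3 of these 5 were higher in every ENT1KO library, where 0.29% of all tested genes were. Of the 11 guanylate-binding proteins 1 was higher and 2 were lower in every ENT1KO library on that scale, with a median of 0.08.

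Other interferon gamma-induced genes did not move as a block. Of 17 tested, 8 rose and 6 fell, with a median of 0.19, beside 27.5% and 23.1% of all tested genes. Genes of class I antigen presentation were among the risers, with Nlrc5, their transactivator, at 316 ± 18.0 TPM in ENT1KO and 131 ± 43.9 TPM in WT, and B2m, the class I light chain, at 5407 ± 227 and 4322 ± 251 TPM (SD, n = 4 and 3). Cd274, which encodes PD-L1, rose by 0.88 (limma-trend adjusted p = 0.00264). The genes that fell included Acod1, an itaconate-producing enzyme of macrophages (-1.72), and the chemokines Cxcl9 (-2.61) and Cxcl10 (-1.37), which were picked as examples after their values were seen. The part that cells other than T cells had in these falls was not tested.

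The autophagy conjugation machinery, which in mouse cells places the p47 GTPases on the right membranes, had calls in both directions. Of its 12 tested genes 2 rose and 2 fell, with a median of 0.08, where 27.5% of all tested genes rose and 23.1% fell. Atg16l1 was at 29.0 ± 2.11 TPM in ENT1KO and 17.9 ± 2.03 TPM in WT, and Atg12 rose by 0.47 (limma-trend adjusted p = 0.00294 and 0.0324). Map1lc3a fell (7.57 ± 1.61 TPM in ENT1KO and 29.9 ± 8.09 TPM in WT; limma-trend adjusted p = 0.00121), while the more abundant Map1lc3b was at 123 ± 6.74 and 122 ± 13.7 TPM. Of 14 genes in a list of autophagy initiation and cargo receptors 8 rose and 2 fell. The list also holds the ubiquitin ligase genes Rnf213, Trim21 and Traf6, which are among the risers. Its count is thus not one of initiation and cargo receptor genes alone. Sqstm1, the cargo receptor p62, fell (266 ± 18.9 TPM in ENT1KO and 432 ± 73.8 TPM in WT), and Rnf213, a large interferon-inducible ubiquitin ligase, rose by 1.43 (limma-trend adjusted p = 0.00414 and 0.00127).

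**Figure D5:**
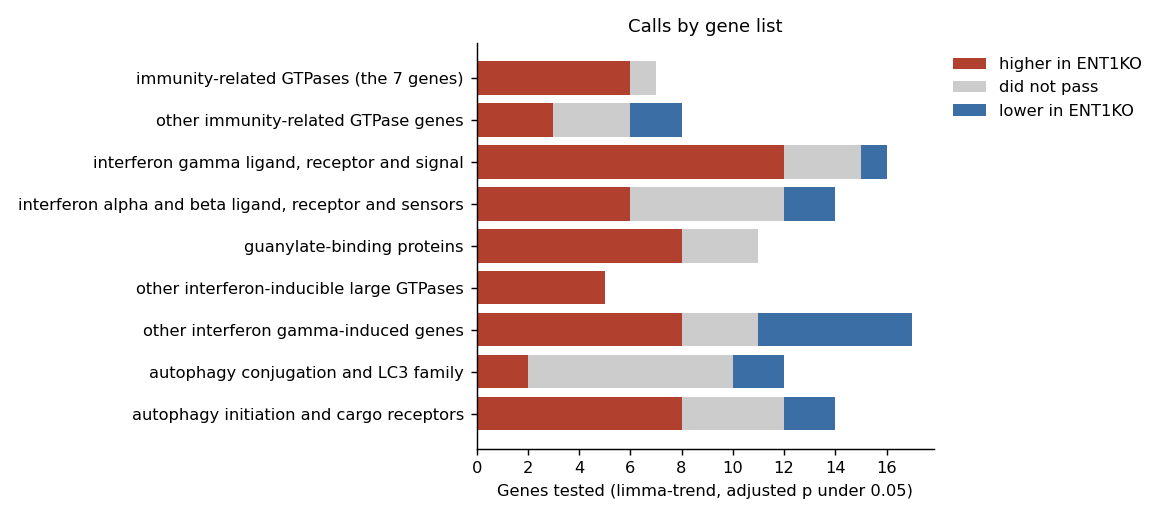
Number of tested genes (horizontal axis) in each list that were higher, not called or lower in ENT1KO than in WT by limma-trend at an adjusted p of 0.05. The 7 GTPases have 6 higher and none lower, and the list of other interferon gamma-induced genes has 8 higher and 6 lower.

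By pattern over the 7 libraries, the protein-coding genes most like the mean of the 7 GTPases included Dhx58, Rtp4, Kat8 and Trim30c, with Pearson's r of 0.986 to 0.988 on log2(TPM + 1). Dhx58, an RNA helicase of the RIG-I family, was at 33.3 ± 4.53 TPM in ENT1KO and 20.4 ± 1.85 TPM in WT, and Rtp4 at 82.4 ± 13.8 and 51.3 ± 5.85 TPM (SD, n = 4 and 3). These values share the genotype difference and the libraries' depth and make-up. When group means were subtracted, Ccdc127, Tbrg4, Acad12, Rtp4 and Abhd5 were nearest, with r of 0.971 to 0.979 over the same 7 libraries. Rtp4 appeared in both sets, which rest on the same libraries and are not independent. Each set was picked for the highest r among the tested protein-coding genes, so these values are a description with no test.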

How the data were processed

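RNA-seq libraries of sorted CD8 T cells were made from 75 ng of RNA after poly(A) selection, per the labels' protocols. The authors deposited a table of TPM, which is corrected for length, sums to the same total in each library and keeps no depth. Their second table holds counts divided by 1 size factor per library, deposited as a signal per library with its mean, log2 fold changes with standard errors, log2 group means, a score (the test statistic) and its p-value, raw and adjusted. Per the submitters' processing notes, the build was GRCm39 and the tools were STAR 2.7.1a, RSEM, Trimmomatic (0.35 and 0.38), DESeq and DESeq2 1.30.1, with no roles stated. The sources used here do not give the annotation release.

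Tested genes reached 1 TPM in 3 or more libraries (13798, all 7 GTPases among them). They were fitted with robust limma-trend on log2(TPM + 1), with genotype alone in the model and p-values adjusted by Benjamini-Hochberg over all of them (limma 3.58.1, R 4.3.3). Ratios within libraries were compared by exact two-sided permutation over 35 splits. All values of the normalized counts were whole multiples of the smallest in their column (within 0.01), which gave the read totals; count tests were not run because the step of some columns lies too near 1 to prove whole reads. The fit was tested on simulated data. The members and gene lists were chosen with earlier results of these data known. Named genes are the members, Slc29a1, in each pathway list the 3 with the smallest p and the 2 most abundant, in each cell type list the 2 most abundant, and the 5 nearest genes by each form of r; some genes under this rule are not reported here. Marker lists of dendritic cells, neutrophils and mast cells, endothelium, B cells and NK cells were also counted. Promoter letters came from RefSeq (GRCm38.p6) and transcript windows from GENCODE M21; their coordinates were not mixed with those of the deposited tables (GRCm39). Alternatives were other pseudocounts, filters and scalings, array weights, a macrophage covariate, the authors' comparison, and leaving out each library.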

Additional observations from a re-analysis of the deposited data

Results flagged for a closer look

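Irgm1 in ENT1KO replicate 12, at 109.8 TPM, lay far below the other 3 ENT1KO libraries (123 to 124 TPM) for the range of its group. Irgm2 in ENT1KO replicate 11, at 63.4 TPM, lay far above the other 3 (44.0 to 46.2 TPM). Both gaps exceeded Dixon's 95% critical value for 4 samples, at 0.966 and 0.885 of the group's range. Chance flags about 1 in 20 groups, and 7 were examined.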

How the results depend on the processing

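No paired analysis was possible because the genotypes share no replicate number (11, 12, 14 and 15 in ENT1KO, 1, 2 and 3 in WT). The count of GTPases called higher in limma was 6 in the reported test and 5 to 6 under the other pseudocounts and filters, quantile normalization, normalized counts, array weights, the authors' table and each left-out library. It was 0 relative to the CD8 T cell identity list, where limma p-values are too small because all genes share that list's spread, and 0 with the macrophage covariate, where 1 had an unadjusted p under 0.05. The count called lower was 0 in the reported test, with none at an unadjusted p under 0.05, 1 with array weights and in the authors' table (Iigp1 in both), and 2 relative to the identity list, where 2 in all were called. Relative to that list the limma differences of Irgm1, Irgm2, Igtp, Ifi47, Tgtp1 and Tgtp2 turned to -0.78, -0.49, -0.27, -0.38, -0.0115 and -0.0454. The macrophage covariate, which cannot be told apart from genotype, turned Iigp1 to 1.08. The causes were not tested.

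Within-library ratios to the identity list put 1 to 2 GTPases lower in every ENT1KO library when a library was left out. Tgtp1 there was 0.0173 on normalized counts and 0.0324 against the list's median; with a library left out the range was -0.26 to 0.30 for Tgtp1, -0.24 to 0.21 for Tgtp2 and -0.42 to 0.0071 for Igtp. These were above 0 without WT replicate 2 (all 3) and without ENT1KO replicate 12 (Tgtp1 and Tgtp2). Ratios to the other members put 2 lower and 2 higher in every ENT1KO library, 1 lower with a pseudocount of 0.1, 0 lower and 1 higher without the Tgtp genes, and 2 lower and 2 to 3 higher with a library left out. Irgm2 ranged from -0.0102 (without WT replicate 1; -0.007 without ENT1KO replicate 11) to 0.22 there. Exact tests without a library cannot go below 0.0667 or 0.1, so these are values with no test. TPM keeps no depth, and no counting intervals were computed.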

Other observations

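The deposited coordinates place Irgm1, Tgtp1, Tgtp2 and Ifi47 in 235007 bases of chromosome 11 (48752795 to 48987801, GRCm39), together with 9 other listed genes. Of the 10 genes tested there, 8 rose and 1 fell in limma-trend, where 27.5% of all tested genes rose and 23.1% fell. The risers include Irgm1, Tgtp1, Tgtp2 and Ifi47, which define the run. Gm12185, 9930111J21Rik1 and 9930111J21Rik2, which rose, and Gm5431, which fell, were already given above, so this count is not a separate result. Psme2b, annotated as a protein-coding gene inside the run, was at 111, 98.1, 105 and 124 TPM in ENT1KO replicates 11, 12, 14 and 15, against 57.5, 53.0 and 70.2 TPM in WT replicates 1, 2 and 3, with no overlap (log2 difference 0.86, limma-trend adjusted p = 0.002). Olfr56, whose span covers Tgtp1, Tgtp2 and Ifi47 and whose transcripts share 2.54% of the 50-base windows of Ifi47, was at 1.61 to 3.04 TPM in ENT1KO and 2.83 to 4.27 TPM in WT and did not pass (-0.48, limma-trend adjusted p = 0.0904). Its level was far below that of the GTPases around it. These genes were chosen by position after the members' values were known. Sequence that Psme2b may share with other genes was not examined.

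Genes whose deviations from the group means were most like those of Iigp1 over the 7 libraries were Dock4, Osbpl1a, Cop1, Adgrl2 and Decr2 (Pearson's r of 0.985 to 0.996, given as a description and looked up after the Iigp1 values were seen). Adgrl2 was at 1.16 ± 0.79 TPM in ENT1KO and 12.4 ± 4.28 TPM in WT, and Osbpl1a at 2.23 ± 1.06 and 6.55 ± 2.18 TPM (SD, n = 4 and 3).

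Of the remaining marker lists, 6 of 13 tested dendritic cell genes fell and 1 rose, 7 of 8 neutrophil and mast cell genes fell, and 6 of 7 endothelial genes fell while Pecam1 rose. In the B cell list 2 of 3 rose and 1 fell, and in the NK cell list 4 of 11 rose and 4 fell. Among all tested genes 27.5% rose and 23.1% fell.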
